A study of Mus musculus with 11 samples.

Results

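Deletion of Raptor in adipocytes was compared with the wild type in mouse inguinal fat, a subcutaneous white adipose depot, over all 11 RNA sequencing libraries of the series and with both treatments pooled. The 5 KO libraries came from C57BL6/J mice with floxed Raptor alleles and a Cre recombinase driven by the adiponectin promoter, which is active in adipocytes and not in the other cells of the tissue. The 6 WT libraries came from mice with floxed Raptor alleles and no Cre. Every mouse ate a high-fat diet from the age of 8 weeks to the age of 16 weeks, so that obesogenic feeding is common to both groups, and some were also given rosiglitazone, an agonist of PPARG, over those 8 weeks at a daily 30 mg per kg. KO replicates 1 to 3 had rosiglitazone and KO replicates 4 and 5 the diet alone, by title and characteristic alike. For all 6 WT libraries the 2 labels name different treatments: WT replicates 1 to 3 had rosiglitazone by the characteristic and the diet alone by the title, and WT replicates 4 to 6 the reverse. Pooling leaves that conflict out of the comparison, which needs only the genotype. Whether each library is a separate animal is not stated in the labels, and p-values therefore reflect the spread among these libraries, possibly a technical one.

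Raptor, the product of Rptor, is the subunit that lets the kinase complex mTORC1 recognise its substrates. mTORC1 senses amino acids, insulin and energy, promotes ribosome production, translation and the SREBP programme of lipid synthesis, and restrains autophagy and the lysosomal factor TFEB. In adipocytes it acts beside PPARG, the nuclear receptor that drives adipocyte differentiation and fat storage and that rosiglitazone activates.

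Depth ran from 13035346 to 20163464 estimated reads in KO and from 16088059 to 40925952 in WT. The lincRNA gene Gm26917 took the largest share of reads, 4.06% to 18.6% in KO and 3.68% to 9.09% in WT. Skeletal muscle markers took over 0.5% of reads in KO replicate 2 (1.893%), WT replicate 3 (0.7226%) and WT replicate 5 (0.7842%). KO replicate 5 was lowest in mature adipocyte markers among KO libraries, and WT replicates 5 and 6 were lowest among WT libraries. Over all 11 libraries together, KO replicates 1, 3 and 5 were lowest. Levels below are CPM (counts per library size, adjusted by TMM factors), and KO values are listed for replicates 1 to 5 in that order.

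The targeted gene came first. Rptor (ENSMUSG00000025583.15, chromosome 11, 119602905 to 119899576, plus strand) measured 88.7, 82.7, 92, 56.5 and 70.3 CPM in KO, and 74.1 to 126 CPM with a median of 101 in WT. The groups overlapped: KO replicate 3 stood above 3 of the 6 WT libraries. The ratio of means was 0.78, and exchanging genotypes among all libraries (two-sided exact permutation test) gave p = 0.0844. On the TPM scale, corrected for transcript length, it was 0.653 (exact permutation p = 0.0281). On CPM by library total, without TMM factors, it was 0.899 (exact permutation p = 0.255). With genotypes exchanged only within a treatment, the ratio of averaged means was 0.756, with an exact permutation p of 0.01 by the characteristic and 0.1 by the title. Reads were summed over all Rptor transcripts, and the tissue also holds cells in which the Cre is not active. These values therefore do not measure how complete the deletion was in adipocytes.

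Genes of the mTORC1 pathway, Rptor included, moved little as a list: 1 of 36 tested members rose and 3 fell, with a median log2 fold change of -0.22. Over all 24168 genes tested, 10.5% were called at an adjusted p under 0.05 in edgeR's quasi-likelihood test, 3.40% higher and 7.06% lower in KO, with a median log2 fold change of 0.048. Sesn2, a leucine sensor that restrains mTORC1, measured 8.76, 9.68, 9.74, 8.62 and 7.06 CPM in KO, and 22.5 to 70.4 CPM with a median of 43.04 in WT. All 5 KO libraries lay below all 6 WT libraries (log2 fold change -2.41 ± 0.27 (SE), adjusted p = 0.00136). Eif4ebp1, the translation repressor that mTORC1 phosphorylates, also fell, by 1.08 on the log2 scale, as did Tbc1d7, a subunit of the TSC complex, by 0.81. Fnip2, a partner of folliculin, was the member that rose, from 40.5 to 75.8 CPM in WT to 51.05 to 166 CPM in KO (log2 fold change 1.24 ± 0.28 (SE), adjusted p = 0.0185), and KO replicate 5 lay within the WT range. The call on Fnip2 was lost without KO replicate 1 or 3 (adjusted p up to 0.0566), and that on Tbc1d7 without KO replicates 1, 3 or 5 or WT replicates 1, 2, 3 or 4 (up to 0.0956). The number of members that fell was 1 without KO replicates 1, 3 or 5 or WT replicates 1, 2, 3 or 4, 6 without KO replicate 4 and 7 without WT replicate 6. Mtor (-0.51), Mlst8 (-0.36), Rictor (0.08) and Deptor (-1.73) did not pass the test.

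Across the transcriptome 821 genes rose and 1706 fell in KO. At least 4-fold changes numbered 79 upward and 339 downward, and at least 16-fold changes 4 and 33. For 1450 genes (6.0%) no KO library overlapped any WT library in CPM, and 1250 of those were among the called genes, 369 higher and 881 lower. In bulk tissue fewer cells of a type and less RNA per cell cannot be told apart, which touches each adipocyte and immune gene below. The number of calls leaned on single libraries. Without KO replicates 1, 2, 3 or 5 it fell to 1050, 1537, 1079 and 1596, without WT replicates 1, 2, 3 or 4 to 1188, 1298, 1264 and 1683, and without WT replicate 6 it was 3951. Leaving out the 3 libraries rich in muscle markers together left 291 calls (17 higher, 274 lower). Leaving out KO replicates 1, 3 and 5, the lowest of all 11 in summed mature adipocyte markers, left 17 (11 higher, 6 lower). That fit kept only KO replicates 2 and 4 in KO, and 3001 genes had an unadjusted p under 0.05.

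**Figure D1:**
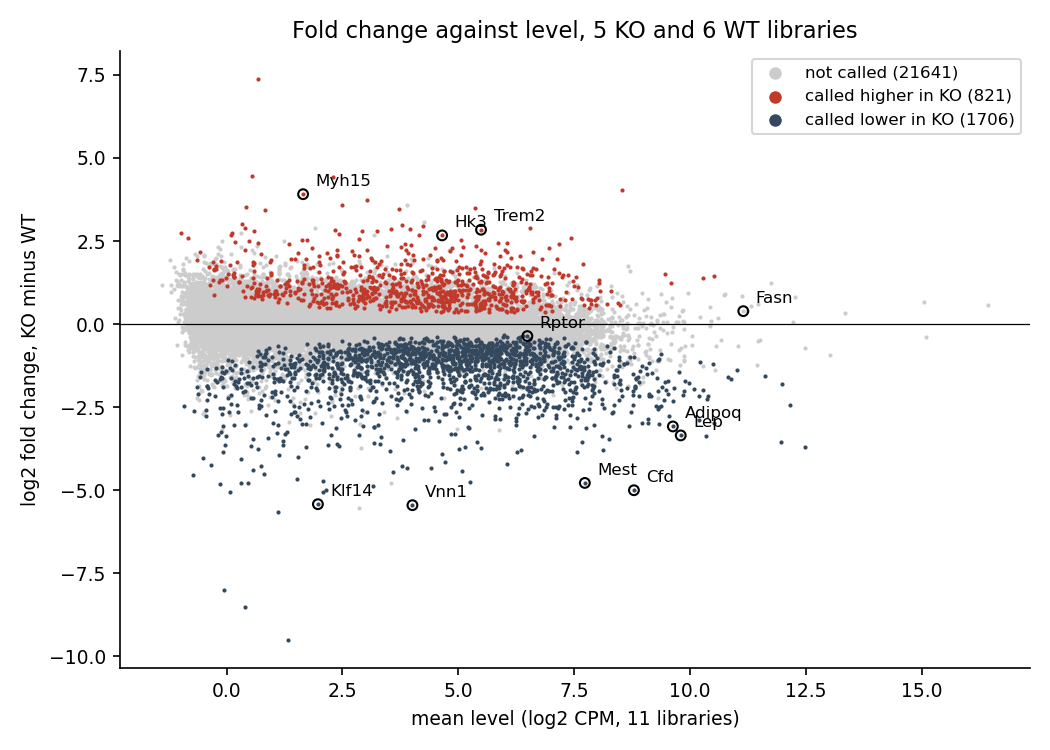
Log2 fold change (KO minus WT) against mean level (log2 CPM) for the 24168 genes tested; red points were called higher in KO (821), dark points lower (1706) and grey points were not called, and circles mark named genes. Beyond a 16-fold change there are 33 called genes downward and 4 upward, and Cfd, Mest, Klf14 and Vnn1 lie near -5.

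The 8 genes taken as lowest, called and without overlap between the groups, ran from -5.67 (Adam3) to -4.75 (Rasd1) on the log2 scale. Cfd (ENSMUSG00000061780.6, chromosome 10, 79890853 to 79892655, plus strand), which encodes the secreted protease adipsin, measured 9.13, 5.59, 4.931, 29.9 and 74.2 CPM in KO, and 403 to 1327 CPM with a median of 638 in WT (log2 fold change -5.0 ± 0.83 (SE), adjusted p = 0.00575). KO replicates 4 and 5, on the diet alone, were the highest of the KO libraries and were still far below every WT library. Adipsin is also the activating protease of the alternative complement pathway. Mest, an imprinted gene linked to fat cell enlargement, measured 6.38, 7.94, 6.49, 38.6 and 8.87 CPM in KO, and 70.1 to 1055 CPM with a median of 293 in WT (log2 fold change -4.78 ± 0.80 (SE), adjusted p = 0.00582). KO replicate 4 stood above the other KO libraries, and WT replicate 4 above the other WT libraries.

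Klf14, an imprinted transcription factor gene linked to fat cell size in human genetics, had no reads in KO replicates 1 to 3 and 0.197 and 0.444 CPM in KO replicates 4 and 5, against 2.02 to 26.3 CPM with a median of 2.27 in WT (log2 fold change -5.42 ± 1.10 (SE), adjusted p = 0.013). Vnn1, which encodes pantetheinase, the enzyme that releases pantothenate and cysteamine, measured 0.375, 0.302, 0.811, 1.23 and 0.484 CPM in KO, and 12.99 to 55.7 CPM with a median of 26.3 in WT (log2 fold change -5.45 ± 0.48 (SE), adjusted p = 0.000376). Acsm5, a mitochondrial medium-chain acyl-CoA synthetase gene, measured 0.0626, 0.0756, 0.312, 0.443 and 0.161 CPM in KO, and 5.80 to 10.98 CPM with a median of 6.93 in WT (log2 fold change -5.05 ± 0.40 (SE), adjusted p = 0.000266). In each of these 3 genes the highest KO library lay well below the lowest WT library.

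The other genes at this end were Adam3, a metalloprotease-family gene known for its role in sperm (0 to 0.148 CPM in KO, 1.52 to 5.54 CPM in WT, log2 fold change -5.67), Prr32 (0.202 to 0.739 CPM against 4.13 to 22.7 CPM, -4.88) and Rasd1, a glucocorticoid-induced Ras-like GTPase gene (1.69 to 3.40 CPM against 14.9 to 189 CPM, -4.75). Adam3 rested on few reads in KO, 0 to 3 per library. All 8 of the lowest named genes were called in each of the 11 fits that left out 1 library.

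Mature adipocyte markers fell almost as a block: 0 of 22 tested members rose and 18 fell, with a median log2 fold change of -2.42. Adiponectin is the abundant insulin-sensitising hormone of fat cells, and its promoter drives the Cre used here. Its gene Adipoq measured 134, 185, 201, 205 and 58.3 CPM in KO, and 454 to 1855 CPM with a median of 1674 in WT, 8.46-fold lower in KO (log2 fold change -3.08 ± 0.48 (SE), adjusted p = 0.00467). Leptin signals fat stores to the brain, and Lep measured 112, 121, 189.9, 283 and 36.3 CPM in KO, and 404 to 3631 CPM with a median of 1279 in WT (log2 fold change -3.35 ± 0.63 (SE), adjusted p = 0.00934). In both genes KO replicate 5 was the lowest library, WT replicate 6 the lowest of WT, and the groups did not overlap.

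Plin1, the perilipin that coats the lipid droplet of fat cells, measured 312, 387, 367, 518 and 188 CPM in KO, and 625.4 to 2007 CPM with a median of 1654 in WT (log2 fold change -2.0 ± 0.37 (SE), adjusted p = 0.00895). Car3, a carbonic anhydrase gene abundant in adipocytes, measured 553, 948, 636, 527 and 254 CPM in KO, and 2662 to 9779 CPM with a median of 8053 in WT (log2 fold change -3.55 ± 0.47 (SE), adjusted p = 0.00268). Sncg, gamma-synuclein, was 10.2-fold lower in KO (log2 fold change -3.35 ± 0.45 (SE), adjusted p = 0.00266). Fabp4, the fatty acid carrier of adipocytes, measured 1062, 932, 854, 1064 and 432 CPM in KO, and 1079 to 4210 CPM with a median of 3136 in WT (log2 fold change -1.65 ± 0.42 (SE), adjusted p = 0.0295), so that the highest KO library lay just under the lowest WT library. Its call was lost in 7 of the 11 fits that left out a library (KO replicate 1, 2, 3 or 5, or WT replicate 1, 2 or 3), with adjusted p up to 0.0767. The members not called were Slc2a4 (-1.31), Cd36 (-1.22), Gpd1 (-0.95) and Thrsp (0.66).

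Among adipokines and hormones, 1 of 17 tested members rose and 10 fell, with a median log2 fold change of -1.69. Sfrp5, a secreted inhibitor of WNT signalling, measured 3.94, 3.25, 3.995, 11.4 and 8.06 CPM in KO, and 42.1 to 319.9 CPM with a median of 86.6 in WT (log2 fold change -4.22 ± 0.60 (SE), adjusted p = 0.00324). Resistin (Retn, -2.41), neuregulin 4 (Nrg4, -2.14), apelin (Apln, -1.56) and retinol-binding protein 4 (Rbp4, -3.75) fell too. The member that rose was Metrnl, at 1.59 on the log2 scale. The number that fell was 6 without KO replicate 3.

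**Figure D2:**
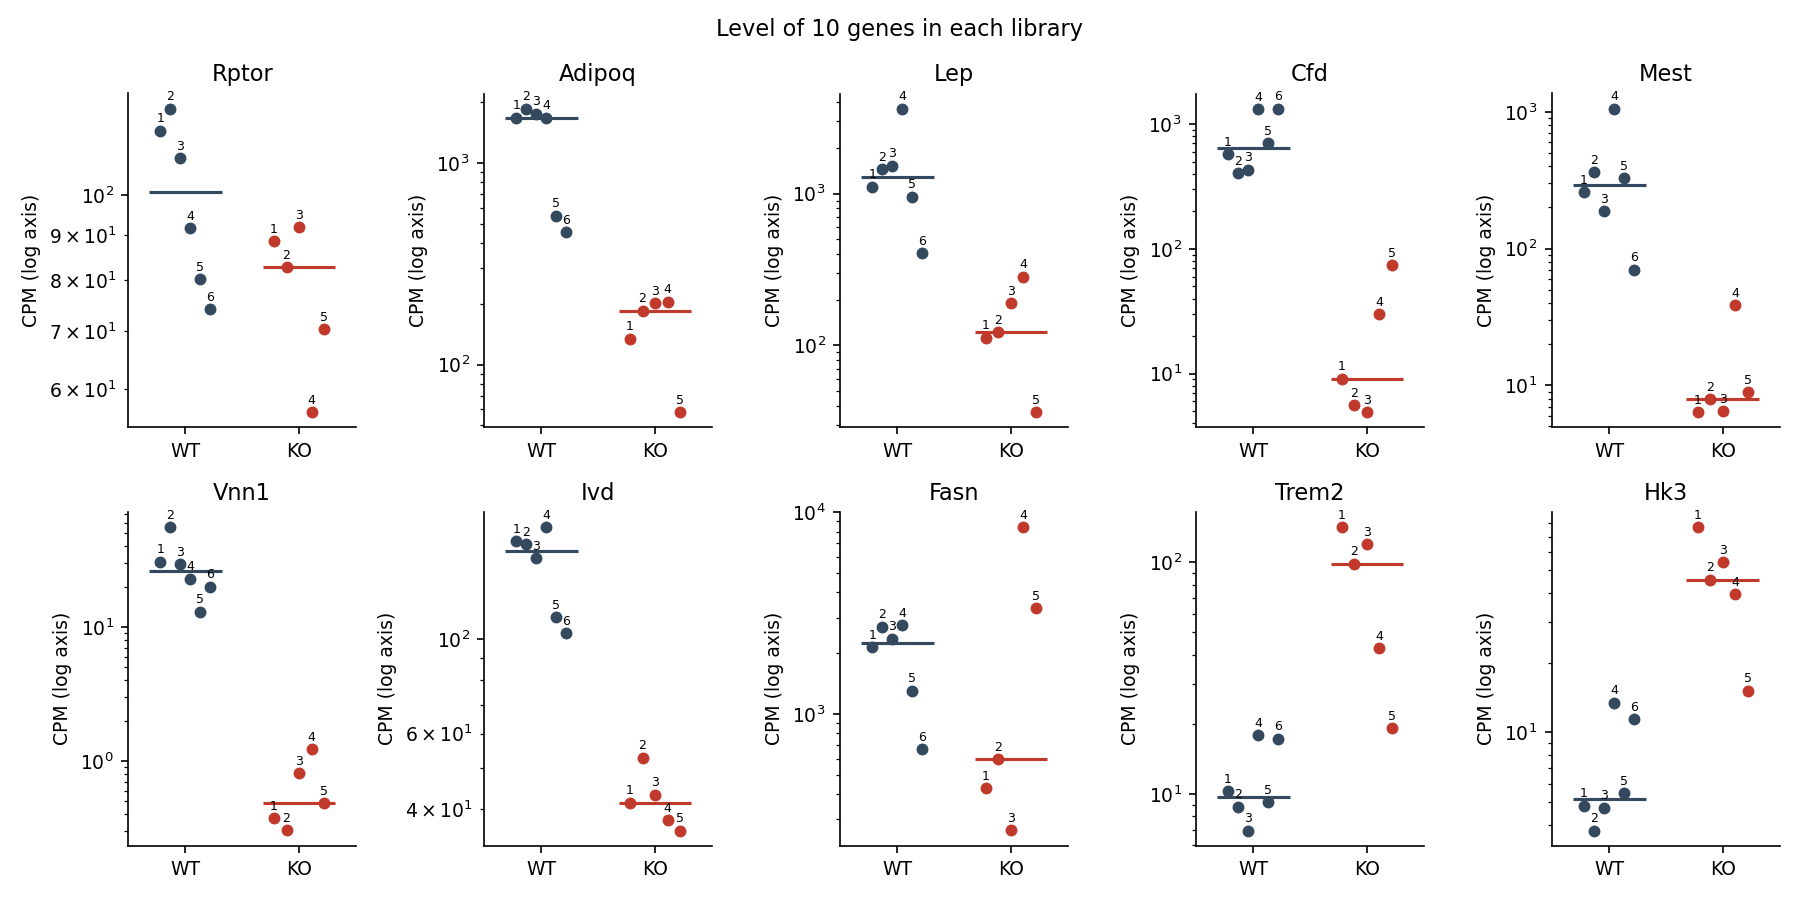
CPM (log axis) of 10 genes in each library; points are libraries with their replicate number, dark for WT (n = 6) and red for KO (n = 5), and horizontal lines are group medians. Adipoq, Lep, Cfd, Mest, Vnn1 and Ivd are separated downward in KO and Trem2 and Hk3 upward, Rptor overlaps, and Fasn splits KO replicates 4 and 5 from 1 to 3.

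PPARG itself was not called. Pparg measured 45.4, 62.4, 45.2, 152 and 42.1 CPM in KO, and 77.3 to 184 CPM with a median of 150.2 in WT (log2 fold change -1.01 ± 0.37 (SE), adjusted p = 0.105), with KO replicate 4 inside the WT range and the other KO libraries below it. Without KO replicate 4 it was called, at an adjusted p of 0.00809. Of its target genes, 1 of 26 tested members rose and 15 fell, with a median log2 fold change of -1.67. Fewer fell when 1 library was left out: 7 without KO replicates 1 or 3 and 9 without KO replicate 2 or WT replicates 1, 2 or 3. Pck1, the glyceroneogenic enzyme that supplies glycerol phosphate for triglyceride, measured 280, 323, 334, 450.2 and 137 CPM in KO, and 1244 to 3725 CPM with a median of 2301 in WT (log2 fold change -2.99 ± 0.41 (SE), adjusted p = 0.00284). Plin4, a second lipid droplet coat protein, measured 1208, 1276, 1334, 2144 and 806 CPM in KO, and 4238 to 9191 CPM with a median of 8460 in WT (log2 fold change -2.43 ± 0.35 (SE), adjusted p = 0.00335). Olr1, the scavenger receptor LOX-1, also found on macrophages, was the member that rose (1.10), a call lost without KO replicates 1 or 3 or WT replicates 1 or 2.

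Of the transcription factors of adipogenesis, 0 of 19 tested members rose and 6 fell, with a median log2 fold change of -0.54. Cebpa, which sustains Pparg expression in mature fat cells, measured 162, 163, 152, 193 and 92.1 CPM in KO, and 276 to 708 CPM with a median of 620 in WT (log2 fold change -1.80 ± 0.29 (SE), adjusted p = 0.00542). Klf15 (-2.04), Zfp423 (-1.94), Rxra, the partner of PPARG on DNA (-1.28), Stat5a (-0.85) and Ebf1 (-0.58) fell as well. Zfp423 keeps white fat cells from taking on a thermogenic programme. Srebf1, the lipogenic factor downstream of mTORC1, stood at 242, 302, 225, 317 and 186 CPM in KO, and 227 to 617 CPM with a median of 492.6 in WT, and was not called (log2 fold change -0.80 ± 0.29 (SE), adjusted p = 0.0985).

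Genes of lipolysis and its control had the lowest median of the lipid pathway lists: 0 of 17 tested members rose and 14 fell, with a median log2 fold change of -1.94. Adora1, the antilipolytic adenosine receptor, measured 18.1, 23.4, 22.8, 35.5 and 10.3 CPM in KO, and 50.2 to 197 CPM with a median of 162 in WT (log2 fold change -2.69 ± 0.41 (SE), adjusted p = 0.00432). Pde3b, the phosphodiesterase through which insulin suppresses lipolysis, measured 139.6, 174, 167, 217 and 120.2 CPM in KO, and 346 to 1029 CPM with a median of 691 in WT (log2 fold change -2.01 ± 0.31 (SE), adjusted p = 0.0045). Adrb3, the adipocyte adrenergic receptor that starts lipolysis, measured 38.6, 26.3, 22.97, 74.5 and 33.2 CPM in KO, and 114 to 239 CPM with a median of 146 in WT (log2 fold change -2.0 ± 0.32 (SE), adjusted p = 0.00477). The lipases Pnpla2 (-1.94), Lipe (-1.76) and Mgll (-2.24) fell, so that activating and restraining members went the same way. The number that fell was 7 without KO replicates 1 or 3.

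Of triglyceride synthesis genes, 1 of 18 tested members rose and 10 fell, with a median log2 fold change of -1.24. Dgat2, which adds the last fatty acid, measured 98.3, 114, 107, 241 and 105 CPM in KO, and 538 to 2100 CPM with a median of 926 in WT (log2 fold change -3.0 ± 0.39 (SE), adjusted p = 0.0023). Mogat1, a monoacylglycerol acyltransferase gene, measured 0.313, 0.227, 0.187, 1.43 and 0.766 CPM in KO, and 3.45 to 8.21 CPM with a median of 4.60 in WT (log2 fold change -3.01 ± 0.48 (SE), adjusted p = 0.00481). Agpat4 was the member that rose (0.61), a call lost without KO replicate 1, and the number that fell was 6 without KO replicates 1 or 3. Cidec, which fuses lipid droplets, was 7.37-fold lower (log2 fold change -2.88 ± 0.50 (SE), adjusted p = 0.00706), one of 6 members of 13 that fell among lipid droplet proteins, none of which rose, and the number that fell there was 3 without KO replicates 1 or 3.

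Genes of de novo fatty acid synthesis did not move as one. Among them, 0 of 20 tested members rose and 7 fell, with a median log2 fold change of -0.63. Scd1, the desaturase that makes oleate, measured 373, 382, 217, 2118 and 726 CPM in KO, and 3012 to 25980 CPM with a median of 8051 in WT (log2 fold change -3.68 ± 0.78 (SE), adjusted p = 0.0145). Pnpla3 (-2.73) and Acss2, the cytosolic acetyl-CoA synthetase gene (-1.34), fell, with no overlap between the groups. Fasn, fatty acid synthase, measured 427, 595, 264, 8435 and 3356 CPM in KO, and 668 to 2760 CPM with a median of 2252 in WT. KO replicates 4 and 5, on the diet alone, were above every WT library, and KO replicates 1 to 3, with rosiglitazone, below every WT library, so that the pooled value was 0.39 ± 0.80 (SE) with an adjusted p of 0.769. The sign of that value turned in other fits, among them the fit without KO replicate 4 (-0.78) and those with treatment as a term (-0.42 by the characteristic, -0.40 by the title). Acly (1.03), Elovl6 (1.19) and Acaca (0.23) were not called either. Fewer members of the list fell when a library was left out, 3 without KO replicates 1 or 3 or WT replicates 1 or 3 and 4 without KO replicates 2 or 5.

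Of genes of cholesterol synthesis and its regulators, 1 of 24 tested members rose and 10 fell, with a median log2 fold change of -0.70. Insig1, the ER protein that retains SCAP and SREBP, measured 40.5, 42.8, 40.6, 59.6 and 30.4 CPM in KO, and 70.4 to 381 CPM with a median of 281 in WT (log2 fold change -2.54 ± 0.40 (SE), adjusted p = 0.00471). Nsdhl, a sterol dehydrogenase gene, measured 3.69, 3.33, 4.49, 4.73 and 4.07 CPM in KO, and 5.34 to 21.7 CPM with a median of 13.01 in WT (log2 fold change -1.71 ± 0.31 (SE), adjusted p = 0.00764). Sc5d, a sterol desaturase gene, fell with KO replicate 4 inside the WT range (log2 fold change -1.96 ± 0.36 (SE), adjusted p = 0.00869). Mvd rose (0.64), a call lost without KO replicates 1, 2, 3 or 5 or WT replicates 1, 2, 3 or 4, while the squalene epoxidase gene Sqle (-0.15) was not called. The number that fell was 6 without KO replicate 1. Among cytosolic NADPH supply genes, the 3 of 9 that fell were Me1 (-2.28), G6pdx (-1.77) and Rpe (-0.80), and the number was 0 without KO replicates 1, 2, 3 or 5 or WT replicates 1, 2 or 3.

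Branched-chain amino acid breakdown in fat cells feeds acetyl- and propionyl-CoA to lipid synthesis. Transcripts of most of its genes fell: 0 of 25 tested members rose and 19 fell, with a median log2 fold change of -1.54. Ivd, isovaleryl-CoA dehydrogenase of the leucine arm, measured 41.4, 52.8, 43.2, 37.7 and 35.6 CPM in KO, and 103 to 182 CPM with a median of 161 in WT (log2 fold change -1.81 ± 0.18 (SE), adjusted p = 0.00094). Mccc2, of the leucine arm as well, measured 19.5, 17.7, 14.98, 18.7 and 11.7 CPM in KO, and 35.6 to 106 CPM with a median of 81.05 in WT (log2 fold change -2.14 ± 0.30 (SE), adjusted p = 0.00293). Aldh6a1, of the valine arm, measured 55.7, 95.6, 74.6, 132 and 43.4 CPM in KO, and 251 to 774 CPM with a median of 580.2 in WT (log2 fold change -2.69 ± 0.39 (SE), adjusted p = 0.00373). The first steps were among the calls, with Bcat2 at -1.04, Bckdha at -1.68 and Dbt at -1.54, and 13 of the 25 genes had no overlap between the groups. The calls numbered 12 without KO replicates 1, 2 or 3 or WT replicates 1 or 3.

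Other mitochondrial lists had low medians with few calls. Of fatty acid oxidation genes, 0 of 24 tested members rose and 2 fell, with a median log2 fold change of -1.31. Cpt2, which acts in the carnitine shuttle that brings fatty acids into mitochondria, measured 54.1, 69.01, 56.4, 64.2 and 19.9 CPM in KO, and 49.9 to 299 CPM with a median of 173 in WT (log2 fold change -1.65 ± 0.48 (SE), adjusted p = 0.0471). WT replicate 6 lay inside the KO range, and Cpt2 was called in 2 of the 11 fits that left out a library, those without WT replicates 5 or 6 (adjusted p 0.0147 to 0.108 over the 11). Of TCA cycle and pyruvate dehydrogenase genes, 0 of 25 tested members rose and 2 fell, with a median log2 fold change of -1.0, the lower ones being Suclg2 (-0.95) and Pcx, pyruvate carboxylase (-2.02). Suclg2 was not called without KO replicate 1 (adjusted p = 0.0501), and Pcx was called in 3 of the 11 fits that left out a library. Without WT replicate 6 the number that fell was 12 for fatty acid oxidation and 9 for the TCA cycle, and without WT replicate 5 it was 10 and 4. Of 59 oxidative phosphorylation genes 1 fell, with a list median of -0.68. Their summed level spread widely within WT, from 2262 to 11250 CPM, against 2259 to 4448 CPM in KO.

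Of genes of insulin signalling and glucose uptake, 0 of 18 tested members rose and 9 fell, with a median log2 fold change of -0.98. The members that fell included the receptor gene Insr (-1.05), Irs1 (-1.04), Irs2 (-1.31) and Akt2 (-1.59). The number that fell was 6 without KO replicates 1, 3 or 5 or WT replicate 3, and 2 without the libraries rich in muscle markers. With the summed mature adipocyte markers as a term it was 0, with a list median of 0.24. Grb14, an inhibitor of the insulin receptor, measured 5.13, 4.54, 4.24, 5.61 and 1.73 CPM in KO, and 16.9 to 44.4 CPM with a median of 32.97 in WT (log2 fold change -2.88 ± 0.36 (SE), adjusted p = 0.0021). Pik3cb, a catalytic PI3-kinase subunit gene, measured 49.4, 44.4, 47, 65.6 and 33.4 CPM in KO, and 82.3 to 149 CPM with a median of 108 in WT (log2 fold change -1.18 ± 0.20 (SE), adjusted p = 0.00663). Slc2a4, the insulin-responsive transporter GLUT4, stood at 34.2, 120.1, 45.9, 131 and 39.1 CPM in KO, and 55.4 to 281 CPM with a median of 207 in WT, and did not pass (log2 fold change -1.31 ± 0.50 (SE), adjusted p = 0.116). Of glycolysis genes, 2 of 21 tested members rose and 1 fell, with a median log2 fold change of -0.27. The members that rose were Hk3 (2.67), described below, and Aldoc, an aldolase gene (1.93). Aldoc rested on few reads, 2 to 25 per library. Its call was kept in 2 of the 11 fits that left out a library, without KO replicate 4 or WT replicate 5. The member that fell was Pfkfb3, which makes the activator of phosphofructokinase and measured 176, 223, 171, 169 and 175 CPM in KO, and 467 to 1459 CPM with a median of 1097 in WT (log2 fold change -2.49 ± 0.29 (SE), adjusted p = 0.00136).

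Genes of the ATF4 amino acid response, a programme that mTORC1 can promote, split into a group that fell and a group with small changes: 0 of 25 tested members rose and 8 fell, with a median log2 fold change of -0.53. Phgdh, the first enzyme of serine synthesis, measured 37.9, 31.6, 31.6, 43.8 and 41.5 CPM in KO, and 99.5 to 371 CPM with a median of 208 in WT (log2 fold change -2.50 ± 0.31 (SE), adjusted p = 0.0021). Cbs, which starts transsulfuration from homocysteine to cysteine, measured 0.313, 0.227, 0.374, 0.197 and 0.242 CPM in KO, and 1.24 to 8.12 CPM with a median of 1.98 in WT (log2 fold change -3.43 ± 0.56 (SE), adjusted p = 0.00539). Cth (-2.63), Psat1 (-1.77) and asparagine synthetase (Asns, -2.03) fell, whereas Atf4 (-0.22), Ddit3 (0.0), Shmt2 (0.22) and Mthfd2 (0.42) did not pass the test.

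Most autophagy and lysosomal genes were not called. Of autophagy genes, 0 of 28 tested members rose and 6 fell, with a median log2 fold change of -0.39. Optn, an autophagy receptor, measured 24.3, 32.6, 24.5, 53.4 and 24.1 CPM in KO, and 45.7 to 131 CPM with a median of 111 in WT (log2 fold change -1.59 ± 0.32 (SE), adjusted p = 0.0129), with KO replicate 4 inside the WT range. Map1lc3a, of the LC3 family, was 3.39-fold lower (log2 fold change -1.76 ± 0.37 (SE), adjusted p = 0.014). Of lysosomal enzymes and the TFEB family, 6 of 36 tested members rose and 0 fell, with a median log2 fold change of 0.38. Gla, alpha-galactosidase A, measured 31.8, 28.9, 30.4, 31.2 and 13.8 CPM in KO, and 8.61 to 16.03 CPM with a median of 9.16 in WT (log2 fold change 1.31 ± 0.24 (SE), adjusted p = 0.00921). Atp6v0d2, a proton pump subunit gene typical of macrophages and osteoclasts, measured 88.8, 109, 130, 64.6 and 12.5 CPM in KO, and 1.63 to 23.6 CPM with a median of 4.04 in WT (log2 fold change 3.49 ± 0.73 (SE), adjusted p = 0.0141). KO replicate 5 was the lowest KO library in both genes and overlapped WT. Tfeb (0.66), Tfe3 (0.21) and Lamp1 (0.07) were not called. The autophagy calls numbered 2 without KO replicates 1, 3 or 5 or WT replicates 1, 2, 3 or 4, 3 without KO replicate 2 and 11 without WT replicate 6. The lysosomal calls numbered 2 without KO replicates 1 or 3 or WT replicate 1, 3 without KO replicate 2 or WT replicates 2 or 3 and 11 without KO replicate 5. On log2(TPM + 1) 1 lysosomal gene was called, with a list median of 0.03. The summed macrophage markers, given below with their values, move with the lysosomal genes, and their part in this result was not tested.

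Cytosolic ribosomal protein genes stood slightly higher in KO: 29 of 77 tested members rose and 0 fell, with a median log2 fold change of 0.53. Rps10 measured 132, 101, 105, 74.7 and 102 CPM in KO, and 50.9 to 73.4 CPM with a median of 65.5 in WT (log2 fold change 0.70 ± 0.16 (SE), adjusted p = 0.0193). Rpl10a measured 74.95, 48.5, 54.2, 36.8 and 50.97 CPM in KO, and 24.6 to 38.1 CPM with a median of 29 in WT (log2 fold change 0.81 ± 0.18 (SE), adjusted p = 0.0178). These calls depended on the unit and on single libraries. On log2(TPM + 1) none of the 77 was called and their median was 0.20. The calls numbered 2 without KO replicate 1, 3 without KO replicate 3 or WT replicate 2, 4 without WT replicate 1, 5 without WT replicates 3 or 4, 7 without KO replicate 5, 16 without KO replicate 2 and 50 without KO replicate 4. The call on Rps10 was lost without KO replicates 1 or 3. Salmon divides reads among ribosomal protein genes and their many processed pseudogenes, which makes these members uncertain. The share of reads in ribosomal and small cytoplasmic RNA genes was 12.1%, 8.65%, 8.40%, 7.63% and 6.76% in KO replicates 1 to 5 and 5.68% to 8.93% in WT. KO replicate 1 was highest in that share and in the summed ribosomal protein genes (9905 CPM), and the part of the share in this result was not tested. Among translation factors Tpt1 (log2 fold change 0.61 ± 0.12 (SE), adjusted p = 0.0121) and Eef1b2 (log2 fold change 0.74 ± 0.16 (SE), adjusted p = 0.0157) rose without overlap, and Eif4g1 fell (-1.0), a call held in 3 of the 11 fits that left out a library. On log2(TPM + 1) no translation factor was called.

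**Figure D3:**
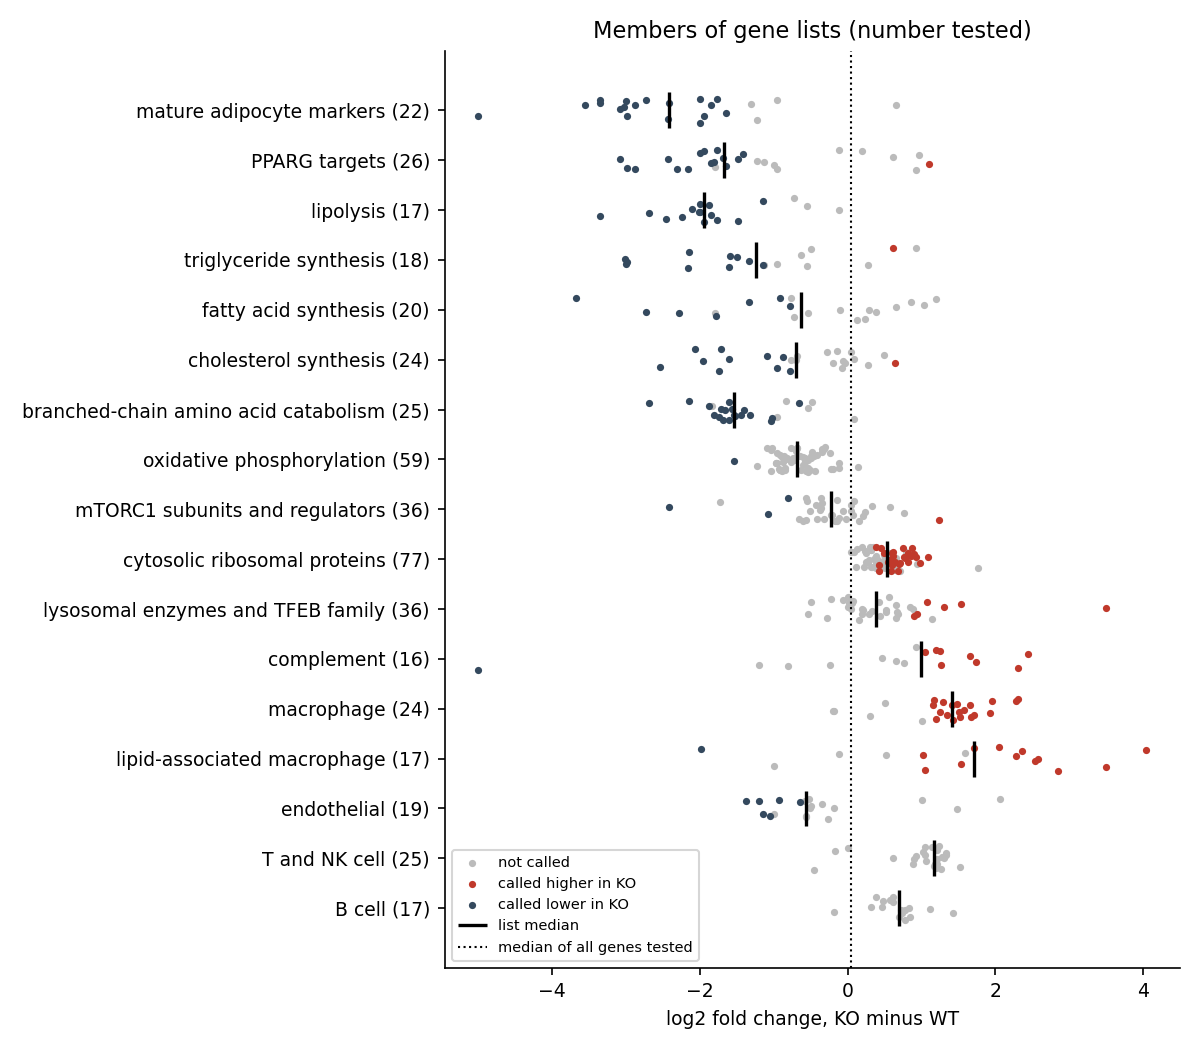
Log2 fold change (KO minus WT) of each tested member of 17 lists, with the number tested in brackets; red and dark points were called higher and lower in KO, grey points were not called, vertical bars are list medians and the dotted line is the median of all genes tested (0.048). Adipocyte, lipolysis and branched-chain amino acid lists lie to the left, and both macrophage lists to the right.

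The 8 genes taken as highest, called and without overlap between the groups, ran from 2.42 (Serpinb9b) to 3.91 (Myh15) on the log2 scale. Trem2, the lipid-sensing receptor of macrophages that gather around dying fat cells, measured 142, 98.7, 120.2, 42.6 and 19.2 CPM in KO, and 6.96 to 17.98 CPM with a median of 9.73 in WT, a fold of 7.18 in KO (log2 fold change 2.84 ± 0.47 (SE), adjusted p = 0.00568). KO replicates 1 to 3 were the highest and KO replicate 5 lay just above the highest WT library. Hk3, the hexokinase of myeloid cells, measured 76.8, 45.6, 54.3, 39.4 and 15.2 CPM in KO, and 3.78 to 13.4 CPM with a median of 5.15 in WT (log2 fold change 2.67 ± 0.44 (SE), adjusted p = 0.0055). Dhrs9, a retinol dehydrogenase gene, measured 37.4, 43.7, 43.9, 44.6 and 9.56 CPM in KO, and 2.10 to 8.32 CPM with a median of 3.80 in WT (log2 fold change 2.96 ± 0.47 (SE), adjusted p = 0.00483).

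Myh15, a myosin heavy chain gene, had the largest rise of these 8 and measured 12.7, 6.95, 6.93, 3.15 and 2.02 CPM in KO, and 0.105 to 1.25 CPM with a median of 0.313 in WT (log2 fold change 3.91 ± 0.64 (SE), adjusted p = 0.00554). Its values did not follow the muscle markers, which were high in KO replicate 2 and WT replicates 2, 3 and 5. Sorcs2, a sortilin-family receptor gene, measured 10.6, 9.52, 8.11, 90.5 and 25.7 CPM in KO, and 2.17 to 6.54 CPM with a median of 3.05 in WT (log2 fold change 2.85 ± 0.65 (SE), adjusted p = 0.0196), with KO replicate 4 far above the rest, and was not called without WT replicate 1 (adjusted p = 0.052). Aspg, an asparaginase gene, measured 4.69, 5.97, 3.75, 22.4 and 10.2 CPM in KO, and 0.888 to 2.17 CPM with a median of 1.06 in WT (log2 fold change 2.85 ± 0.47 (SE), adjusted p = 0.00545). Both genes were highest in the KO libraries on the diet alone. The giant cadherin gene Fat3 (2.81) was instead higher in the KO libraries with rosiglitazone than in KO replicates 4 and 5. Serpinb9b (2.42) measured 4.88, 4.16, 7.365, 4.28 and 1.73 CPM in KO. There KO replicate 4, on the diet alone, lay within the range of the KO libraries with rosiglitazone.

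Macrophage markers rose as a list: 19 of 24 tested members rose and 0 fell, with a median log2 fold change of 1.41. Csf1r, the receptor for the macrophage growth factor CSF1, measured 282, 237, 302, 317 and 144 CPM in KO, and 96.5 to 141 CPM with a median of 108 in WT (log2 fold change 1.15 ± 0.21 (SE), adjusted p = 0.00767), without overlap. Ms4a7 measured 33.5, 25.2, 26.03, 29.6 and 10.1 CPM in KO, and 6.39 to 13.1 CPM with a median of 7.61 in WT (log2 fold change 1.58 ± 0.28 (SE), adjusted p = 0.00764), with KO replicate 5 inside the WT range. Adgre1 (F4/80, 2.28) and Cd68 (2.31) rose, and the resident-type markers Timd4 (-0.20) and Cd163 (0.30) did not pass. Of lipid-associated macrophage markers, 12 of 17 tested members rose and 1 fell, with a median log2 fold change of 1.71, with Gpnmb at 4.04, Lgals3 at 2.58 and Tyrobp at 2.28. Acp5, the tartrate-resistant acid phosphatase gene, was the member that fell, from 105 to 268 CPM in WT to 42.2 to 48.7 CPM in KO (log2 fold change -1.98 ± 0.22 (SE), adjusted p = 0.00121). The 17 lipid-associated markers summed to 4126, 3960, 4803, 2821 and 1032 CPM in KO, and 1189 to 2667 CPM with a median of 1535 in WT. KO replicate 5 thus lay below every WT library, and KO replicate 4 just above the highest. The lipid-associated members that rose numbered 8 without KO replicates 1 or 3 or WT replicate 1. The calls among the 24 macrophage markers numbered 11 without KO replicates 1 or 3 or WT replicates 1, 2 or 3. On log2(TPM + 1) 6 of the 24 were called, with a median of 1.0.

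Of complement genes, 8 of 16 tested members rose and 1 fell, with a median log2 fold change of 0.99, the lower one being Cfd. On log2(TPM + 1) 3 rose. C1qb measured 234, 197, 246, 306 and 83.99 CPM in KO, and 51.7 to 91 CPM with a median of 65.9 in WT (log2 fold change 1.65 ± 0.28 (SE), adjusted p = 0.00603), and C5ar1, the receptor for the fragment C5a, stood at 4.93 times the WT level in KO (log2 fold change 2.30 ± 0.40 (SE), adjusted p = 0.00653). Of chemokines and inflammatory cytokines, 3 of 21 tested members rose and 0 fell, with a median log2 fold change of 0.82, and the risers were Il1rn, the interleukin 1 receptor antagonist gene (2.97), Ccl9 (2.41) and Ccl6 (2.17). Ccl6 was called in 4 of the 11 fits that left out a library. Of collagens and matrix genes, 4 of 27 tested members rose and 0 fell, with a median log2 fold change of 0.04, with Col1a1 at 1.45, Col1a2 at 1.38 and Mmp12, macrophage elastase, at 2.05. The number that rose in this list was 1 without KO replicate 1 and 2 without KO replicate 3 or WT replicates 1, 2 or 3, and without KO replicate 1 neither collagen was called. Members of the list fell in other fits, 3 without KO replicate 4 and 2 without WT replicate 5 or 6 or on log2(TPM + 1).

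Marker levels were also summed for each cell type in every library. Over the 22 markers of mature adipocytes the sum was 6695, 8419, 7829, 11730 and 3935 CPM in KO, and 16750 to 50130 CPM with a median of 44550 in WT. WT replicates 5 and 6, at 19640 and 16750 CPM, were well below the other WT libraries and above every KO library. The 24 macrophage markers summed to 3751, 3282, 4068, 4411 and 1728 CPM in KO, and 883 to 1746 CPM with a median of 1208 in WT, where KO replicate 5 fell within the WT range. The part of a changed cell mixture in the other results was not tested, and since the adipocyte sum separates the groups without overlap, it cannot be told apart from genotype. With that sum as a term beside genotype, 294 genes were called, 224 higher and 70 lower, and 24 of them were among the calls of the plain comparison. Of the 106 called genes named under the rule 4 were still called (Adam3, Vnn1, Acsm5 and Cfd) and 27 took the other sign. Cfd is itself one of the 22 markers in the sum.

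Lymphocyte markers varied widely within each group, in a fat pad that carries a lymph node. B cell markers summed to 1176, 1331, 1447, 267 and 1934 CPM in KO, and 229 to 1863 CPM with a median of 618 in WT, and none of 17 was called. T and NK cell markers summed to 683, 597, 679, 39.8 and 1067 CPM in KO, and 29.02 to 642 CPM with a median of 222 in WT, and none of 25 was called although their median log2 fold change was 1.17. KO replicate 4 and WT replicates 2 and 4 were the lowest libraries for T and NK markers. With the lymphocyte sum as a term 2906 genes were called. Of endothelial markers, 0 of 19 tested members rose and 6 fell, with a median log2 fold change of -0.56, with Cdh5, VE-cadherin, at -1.14, and the number that fell was 0 without KO replicates 1 or 3, 1 without KO replicate 5 or WT replicates 1 or 2, 2 without KO replicate 2 or WT replicate 3 and 3 without WT replicate 4. Of adipocyte progenitor markers, 0 of 18 tested members rose and 2 fell, with a median log2 fold change of 0.59, the lower ones being F3 (-1.49) and Gsn (-1.56), whose number was 0 without KO replicates 2, 3 or 5 and 1 without KO replicate 1 or WT replicates 1 or 3. The sum of these markers lay the other way from their median, at 2731, 2013, 2107, 6306 and 2777 CPM in KO, and 3454 to 8045 CPM with a median of 5695 in WT. Without KO replicate 4 the median was 0.21. All 5 erythrocyte genes fell, with a median of -1.76, from a sum of 221 to 846 CPM in WT to 99.6 to 225 CPM in KO, overlapping at KO replicate 4 and WT replicate 5, and the number called was 1 without KO replicate 3 and 3 without KO replicates 1 or 5 or WT replicate 1.

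**Figure D4:**
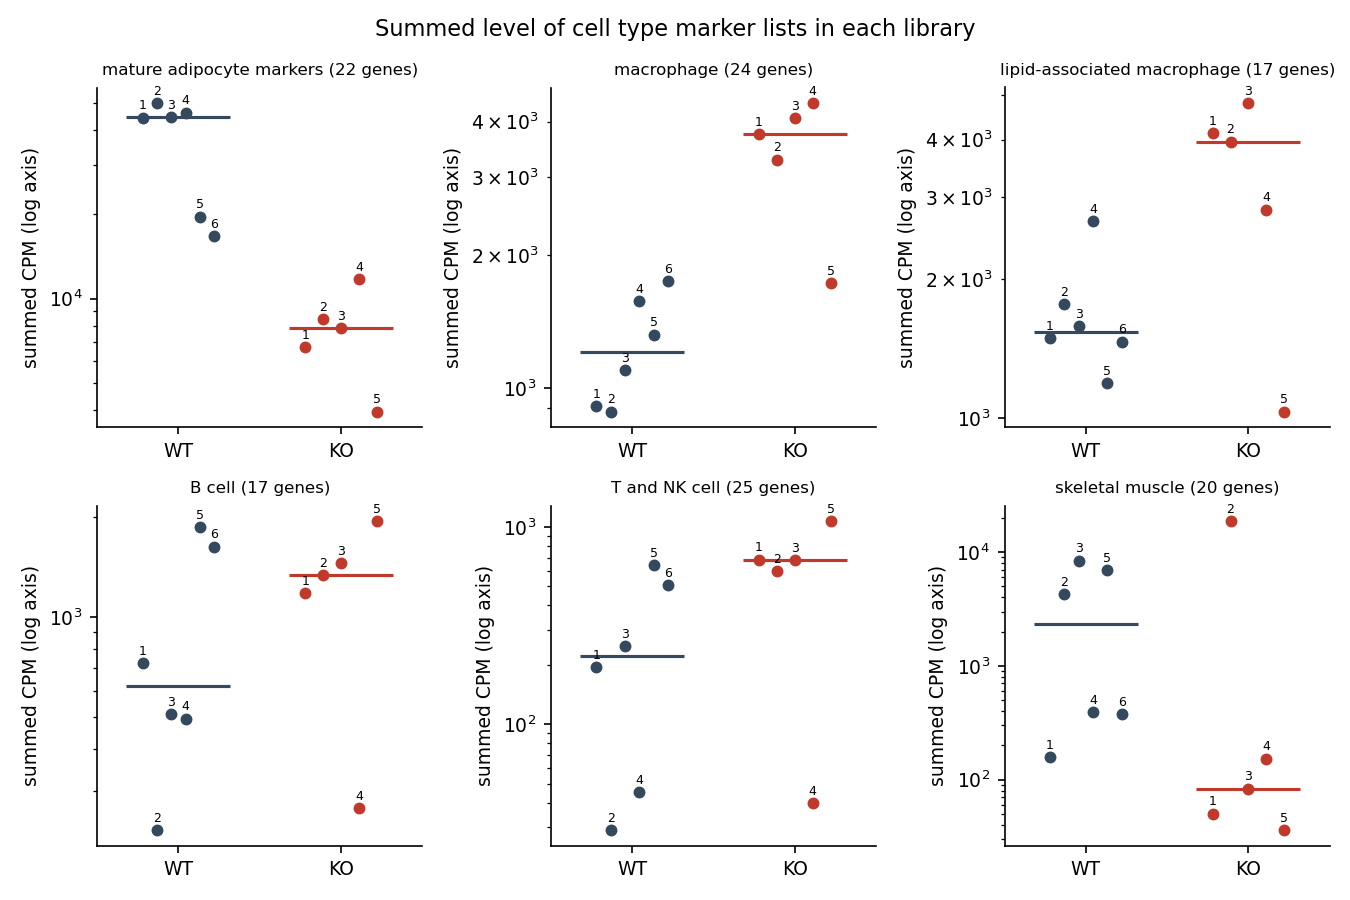
Summed CPM (log axis) of 6 marker lists in each library; points are libraries with their replicate number, dark for WT (n = 6) and red for KO (n = 5), and lines are group medians. Mature adipocyte sums separate the groups, macrophage sums separate them except for KO replicate 5, and lymphocyte and muscle sums overlap.

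Of imprinted genes with roles in growth, 0 of 14 tested members rose and 6 fell, with a median log2 fold change of -0.97. Peg3, a zinc finger gene expressed from the paternal allele, measured 51.7, 38.6, 55.99, 56.1 and 21.4 CPM in KO, and 189.6 to 864 CPM with a median of 434 in WT (log2 fold change -3.37 ± 0.41 (SE), adjusted p = 0.00178). Nnat, neuronatin, measured 51.9, 63.3, 76.3, 33.9 and 14.03 CPM in KO, and 306 to 769 CPM with a median of 557 in WT (log2 fold change -3.45 ± 0.43 (SE), adjusted p = 0.00211). Zim1, next to Peg3 in the same imprinted domain, was 3.61-fold lower (log2 fold change -1.85 ± 0.28 (SE), adjusted p = 0.00451). Plagl1 (-2.51) fell, while H19 (0.81), Igf2 (-0.20) and Meg3 (0.69) were not called. In the circadian clock, Nr1d1, the repressor REV-ERB alpha, measured 32.2, 37.8, 25.5, 51.1 and 35.1 CPM in KO, and 67.2 to 118 CPM with a median of 89.2 in WT (log2 fold change -1.32 ± 0.20 (SE), adjusted p = 0.00427), Per3 (-1.06) fell, and Arntl (0.66) did not pass. The clock genes that fell numbered 4 of 19 and, on log2(TPM + 1), 2. When 1 library was left out they numbered 2 without KO replicates 1, 2, 3 or 5 or WT replicates 1, 2 or 3 and 8 without KO replicate 4.

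Thermogenic genes gave no common direction: of brown and beige markers, 0 of 23 tested members rose and 3 fell, with a median log2 fold change of 0.14. Ucp1, the uncoupling protein of brown fat, ranged from 14.9 to 139 CPM in KO and from 0 to 114 CPM in WT and was not called (log2 fold change 0.99 ± 1.25 (SE), adjusted p = 0.622). Prdm16, the factor that sustains the thermogenic programme, measured 9.07, 9.22, 7.87, 11.97 and 6.49 CPM in KO, and 21.3 to 37.7 CPM with a median of 32.98 in WT (log2 fold change -1.78 ± 0.21 (SE), adjusted p = 0.00148), and Lhx8 fell as well (-1.62).

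The pooled differences were then set out by treatment, with the WT libraries assigned by either label. By the characteristic, Adipoq differed by -2.76 on diet alone and -3.34 with rosiglitazone on the log2 scale, and by the title by -3.74 and -2.36. For Cfd these values were -4.42, -6.16, -3.17 and -7.41 in the same order, and for Ivd -1.85, -1.84, -2.16 and -1.53. Trem2 stood at 1.06, 3.79, 1.83 and 3.02, and Csf1r at 0.84, 1.41, 1.17 and 1.09. The sign of each of these 5 genes was the same in both treatments under either label. Fasn was the only one of the 132 named genes with opposite signs in the 2 treatments under both labels, 1.90 on diet alone and -2.49 with rosiglitazone by the characteristic, and 1.29 and -1.88 by the title. The difference between treatments for Fasn, tested as an interaction, did not pass by either label (edgeR adjusted p = 0.0888 and 0.105). By the title the interaction passed for Cfd (-4.24, adjusted p = 0.0276) and Sorcs2, and by the characteristic for Fat3, and none of these 3 passed by the other label.

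Promoters of the called named genes were searched for motifs of factors tied to mTORC1 and PPARG, in the 250 bases before each RefSeq gene start, on both strands, in build GRCm38.p6. The table holds 32851 starts of 27025 genes, and a gene was counted where any of its starts held a motif. Of 104 called named genes searched, 87 had a promoter in the table, and 13 of them held the E-box CACGTG, bound by SREBP, ChREBP, MYC and TFEB. The E-box was in 6.02% of all promoters, in 7.19% of the 1585 promoters of genes called lower and in 7.95% of the 704 promoters of genes called higher. These are shares of promoters and not of genes, so they cannot be set beside the 13 of 87 genes. The direct repeat AGGTCANAGGTCA of PPARG and RXR was in 0.0335%, the C/EBP and ATF4 composite element TGATGNAA in 3.45% and the sterol regulatory element in 0.0731% of all promoters, and no searched promoter of a called named gene held one. The composite element was in 2.21% of promoters of lower genes and 2.70% of those of higher genes. The direct repeat was in 2 promoters of lower genes (0.126%) and 0 of higher genes. The sterol element was in 0 promoters of lower genes and 1 of higher genes (0.142%). A match describes the letters and no more. The 6 of the 13 with the smallest adjusted p, all lower in KO, are shown from 250 bases before to the last base before the start, with the E-box in capitals.

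Acsm5 (chr7:119526015-119526264, plus strand, E-box starting 132 bases before the start): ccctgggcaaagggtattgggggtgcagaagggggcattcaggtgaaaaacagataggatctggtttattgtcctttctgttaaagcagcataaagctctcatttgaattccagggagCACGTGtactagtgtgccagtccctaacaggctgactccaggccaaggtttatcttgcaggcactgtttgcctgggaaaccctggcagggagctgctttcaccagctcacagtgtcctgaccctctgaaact
Pfkfb3 (chr2:11502091-11502340, minus strand, 53 bases before): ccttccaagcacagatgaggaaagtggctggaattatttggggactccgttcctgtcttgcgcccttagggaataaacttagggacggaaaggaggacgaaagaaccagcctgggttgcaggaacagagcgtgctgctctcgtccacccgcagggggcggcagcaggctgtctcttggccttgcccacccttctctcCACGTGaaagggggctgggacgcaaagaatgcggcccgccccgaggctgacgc
Mccc2 (chr13:100015640-100015889, minus strand, 9 bases before): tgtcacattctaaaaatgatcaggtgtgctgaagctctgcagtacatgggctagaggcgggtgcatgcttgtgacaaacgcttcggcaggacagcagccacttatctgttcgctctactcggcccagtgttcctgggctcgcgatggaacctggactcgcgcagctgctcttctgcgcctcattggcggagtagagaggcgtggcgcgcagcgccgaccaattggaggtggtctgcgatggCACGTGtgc
Insig1 (chr5:28071162-28071411, plus strand, 101 bases before): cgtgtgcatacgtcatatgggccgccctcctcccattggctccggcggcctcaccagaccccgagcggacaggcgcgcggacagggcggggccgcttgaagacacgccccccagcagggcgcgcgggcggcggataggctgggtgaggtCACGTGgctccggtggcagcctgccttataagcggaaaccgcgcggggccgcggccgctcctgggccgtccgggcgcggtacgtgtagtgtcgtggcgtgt
Cbs (chr17:31637206-31637455, minus strand, 229 bases before): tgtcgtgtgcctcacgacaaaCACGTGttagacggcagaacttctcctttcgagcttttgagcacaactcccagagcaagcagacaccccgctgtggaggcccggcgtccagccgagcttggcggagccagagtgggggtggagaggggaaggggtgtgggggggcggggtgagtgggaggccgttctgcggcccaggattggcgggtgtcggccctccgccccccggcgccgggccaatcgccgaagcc
Sc5d (chr9:42264301-42264550, minus strand, 98 bases before): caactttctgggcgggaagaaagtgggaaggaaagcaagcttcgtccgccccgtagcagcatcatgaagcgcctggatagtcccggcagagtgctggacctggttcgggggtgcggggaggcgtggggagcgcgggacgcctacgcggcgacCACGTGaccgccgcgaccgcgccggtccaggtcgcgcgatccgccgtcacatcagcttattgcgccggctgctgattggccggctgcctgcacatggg

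The E-box lay within 101 bases of the start in Insig1, Sc5d, Pfkfb3 and Mccc2 and further upstream in Acsm5 and Cbs. The RefSeq starts used for Acsm5 and Pfkfb3 lie 6802 and 51987 bases inside the GENCODE genes, so those 2 stretches are upstream of an internal start. The others of the 13 were Klf15, Tef, Pcx, Eif4g1 and Tbc1d7, which fell, and Gla and Bax, which rose.

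DESeq2 called 4158 genes and limma-voom with quality weights 9270, while limma-trend on log2(TPM + 1) called 1490, of which 91.3% were lower, against 67.5% in the main comparison, and the median log2 difference of all genes was -0.163 there. Among protein-coding genes alone 57% of 2578 calls were lower. Of the 106 called named genes, all 106 were called by RLE scaling, upper-quartile scaling, DESeq2 and limma-voom, 77 on TPM and 30 without the libraries rich in muscle markers. No called named gene changed sign in the alternatives listed with the design, and 74 were called in each fit that left out 1 library.

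Counts within lists shrank with the same libraries. Without the 3 libraries rich in muscle markers the number that fell was 9 for mature adipocyte markers, 3 for PPARG targets, 2 for lipolysis, 5 for branched-chain amino acid catabolism and 4 for ATF4 targets, and no macrophage, lysosomal or ribosomal protein gene of these lists was called. The medians there were -2.35, -1.78, -1.96, -1.66 and -0.57 for the first 5 lists and 1.39 for macrophage markers. Without the 3 libraries lowest in mature adipocyte markers none of the genes of those 5 lists was called and 1 macrophage marker was, C1qc, with medians of -1.94 for mature adipocyte markers, -1.63 for lipolysis, -1.29 for branched-chain amino acid catabolism and 1.52 for macrophage markers. The directions of these medians in both sets were those of the full set, and fewer libraries entered the test. The second set kept only KO replicates 2 and 4, against all 6 WT libraries. With the mature adipocyte sum as a term they turned to 1.02 for PPARG targets (4 rose, 0 fell), 0.48 for lipolysis, 0.51 for branched-chain amino acid catabolism and 0.22 for ATF4 targets. The median of the mature adipocyte markers was -0.19 there and that of macrophage markers 1.62, with 1 macrophage marker called. The term is the sum of the 22 mature adipocyte markers themselves, so their median there is no separate outcome. The PPARG target and lipolysis lists share genes with that sum.

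**Figure D5:**
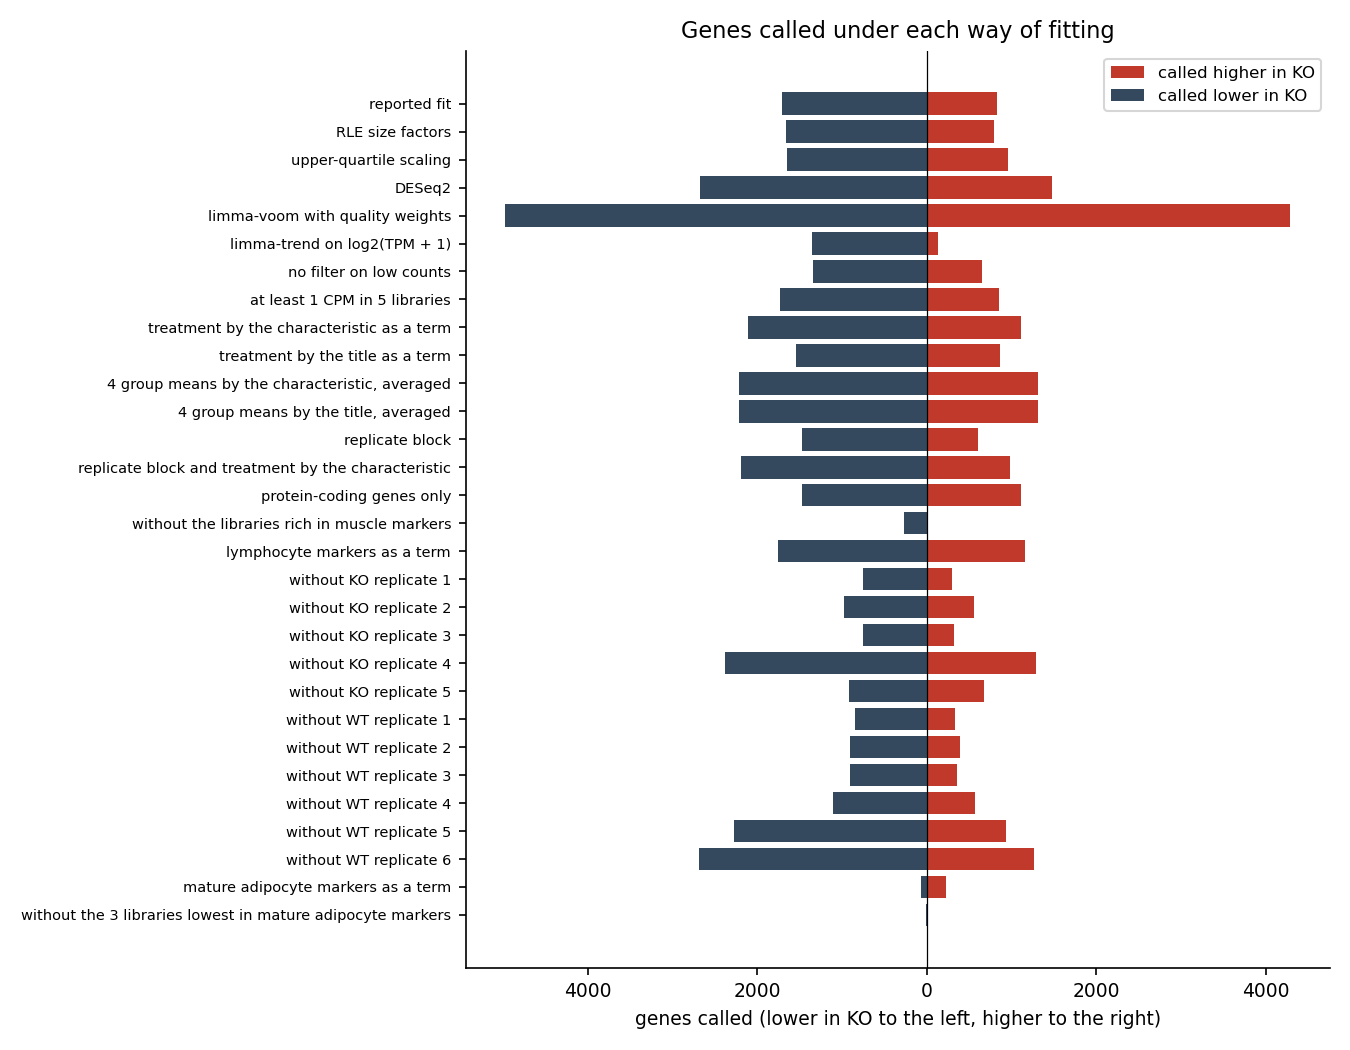
Genes called under each way of fitting, bars to the right for genes higher in KO and to the left for genes lower in KO, with the reported fit at the top (821 and 1706). The fewest genes are called without the libraries lowest in mature adipocyte markers (17), without those rich in muscle markers (291) and with mature adipocyte markers as a term (294), and the most by limma-voom (9270).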

How the data were processed

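Inguinal fat RNA was isolated in Trizol, and libraries were prepared with Nextera XT, per the labels' protocols. The deposited files give, per transcript, estimated counts and TPM by Salmon, per the file headers. The submitters' processing notes name edgeR and mm10/GRCm38, with versions not given in the sources used. Of 132288 transcripts 99.7% were matched to GENCODE genes of GRCm38, their estimated counts were added up by gene, rounded to whole numbers, and 24168 genes passed edgeR's filterByExpr. Genotype was tested with edgeR 4.0.16 (R 4.3.3) by the robust quasi-likelihood test with TMM factors over all 11 libraries and Benjamini-Hochberg adjustment at 0.05. SE is the log2 fold change divided by the root of F. Rptor was tested by exact permutation. Alternatives used limma 3.58.1, DESeq2 1.42.0, other filters, terms and left-out libraries. The fit was tested on simulated data.

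Members and gene lists were chosen with earlier results of these data known. Named genes were Rptor, the 8 highest and 8 lowest called genes with a mean log2 CPM of at least 1, an established symbol and no overlap between the groups, fixed genes, and the 3 members of smallest p in each described list, a number lowered from 4 after values were seen. Other members were named after their values were seen. Promoters on 1 chromosome were not used here, and some genes are not reported here. No 2 libraries were identical: chi-square per degree of freedom between replicates was 29.3 to 222.8.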

Additional observations from a re-analysis of the deposited data

Results flagged for a closer look

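Of 260 sets of libraries checked (130 named genes in 5 KO and in 6 WT libraries), 44 had 1 library farther from the others than Dixon's 95% critical value for the gap allows (0.71 for 5 libraries, 0.625 for 6). For independent values from 1 normal distribution this happens in about 1 of 20 sets. The sets here mix 2 treatments, and the genes were chosen with results known and can move together. The 44 of 260 therefore cannot be set against that share. KO replicate 4 stood apart in 17 and WT replicate 4 in 17. KO replicate 1 was the library apart in Krt19 (8.26 CPM) and Epcam (3.88 CPM). KO replicate 2 was the library apart in Tbc1d7 (8.99 CPM) and Pfkfb3 (223 CPM). KO replicate 4 was the library apart in Mest (38.6 CPM), Sorcs2 (90.5 CPM), Pparg (152 CPM), Pnpla3 (68.9 CPM), Scd1 (2118 CPM), Me1 (261 CPM), Rpe (56.3 CPM), Sc5d (64.4 CPM) and Dgat2 (241 CPM). The further genes in KO replicate 4 were Pcx (464 CPM), Phlda3 (121 CPM), Isg15 (16 CPM), Oasl2 (78.7 CPM), Ccl6 (492 CPM), Xbp1 (184 CPM), Csf3r (26.7 CPM) and Gsn (2808 CPM). KO replicate 5 was the library apart in Dhrs9 (9.56 CPM), Cidec (99.3 CPM) and Gla (13.8 CPM). WT replicate 3 was the library apart in Zbtb46 (37.7 CPM). WT replicate 4 was the library apart in Klf14 (26.3 CPM), Acsm5 (10.98 CPM), Mest (1055 CPM), Rasd1 (189 CPM), Myh15 (1.25 CPM), Lep (3631 CPM), Pnpla3 (389 CPM), Scd1 (25980 CPM) and Dgat2 (2100 CPM). The further genes in WT replicate 4 were Mogat1 (8.21 CPM), Sfrp5 (320 CPM), Eef1b2 (30.1 CPM), Cbs (8.12 CPM), Atp6v0d2 (23.6 CPM), F3 (47.3 CPM), Col15a1 (965 CPM) and Prx (18.2 CPM). WT replicate 6 was the library apart in Ms4a7 (13.1 CPM) and Epcam (1.83 CPM).

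The effect of genotype differed between treatments, by a test of the interaction in edgeR, for 3 named genes. By the title, the log2 difference between KO and WT was lower with rosiglitazone than on the diet alone by -4.24 for Cfd (adjusted p = 0.0276) and by -3.57 for Sorcs2 (adjusted p = 0.0454). By the characteristic it was higher with rosiglitazone by 2.79 for Fat3 (adjusted p = 0.0496). With the other label the interactions were -1.74 for Cfd (adjusted p = 0.325), -1.67 for Sorcs2 (0.393) and 0.76 for Fat3 (0.433). Which label is right was not tested.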

How the results depend on the processing

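The number of genes called was 4158 by DESeq2 (1480 higher, 2678 lower), 9270 by limma-voom with quality weights (4290 higher, 4980 lower) and 1490 by limma-trend on log2(TPM + 1) (129 higher). With 4 group means averaged, by either label, 1305 genes were higher. Without the libraries rich in muscle markers 291 were called (17 higher, 274 lower). Of 2 alternatives chosen after seeing the data, mature adipocyte markers as a term gave 294 (224 higher, 70 lower). The other, leaving out KO replicates 1, 3 and 5, gave 17 (11 higher, 6 lower). Leaving out each library in turn gave 1050 (without KO replicate 1) to 3951 (without WT replicate 6) calls, 294 to 1283 higher and 756 to 2693 lower. The remaining alternatives stayed within 1.5 times the reported counts. The causes were not tested, except that the fits without 3 libraries have fewer samples.

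The Rptor ratio passed the threshold on TPM (0.653) and with genotypes exchanged within a treatment by the characteristic (0.756), and on CPM without TMM factors it was 0.899 (exact permutation p = 0.255). The Fasn difference, not called in the reported fit, turned to -1.96 by limma-voom, -0.79 on TPM, -0.42 and -0.40 with treatment by the characteristic and by the title as a term, -0.29 with 4 group means by either label, -0.13 with the replicate block and -0.59 with the replicate block and treatment, and ranged from -0.78 to 0.69 when 1 library was left out.

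With the replicate number as a block 2067 genes were called. Numbers are shared between KO and WT, and of 15 same-numbered pairs 7 had a correlation of deviations over 0.1 (range -0.689 to 0.784). The median was 0.016, against -0.013 for pairs of other numbers. Deviations from means of 2 or 3 libraries are constrained, so these values cannot settle whether the numbers pair the samples.

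Depth differed up to 40925952 against 13035346 estimated reads, and low genes such as Adam3 rest on few reads in KO. Transcript estimates divide reads between near-identical copies, which limits ribosomal protein genes and globin genes.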

Other observations

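Of the genes called in the pooled comparison, 6 were also called both with the mature adipocyte sum as a term and without the 3 libraries lowest in that sum, and they were picked after their values were seen. Celsr2, an atypical cadherin gene of the planar polarity family, measured 8.70, 6.20, 3.93, 4.04 and 8.06 CPM in KO, and 45.5 to 103 CPM with a median of 66.9 in WT, without overlap. Enpp2, which encodes autotaxin, the secreted enzyme that makes lysophosphatidic acid and is abundant in fat, measured 116, 90.5, 114, 68.5 and 126 CPM in KO, and 254 to 323 CPM with a median of 294 in WT. KO replicate 4 was the lowest library, and no KO library reached the WT range.

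C1qc, a chain of the complement starter C1q made by macrophages, measured 76.6, 75.3, 93.2, 94.6 and 32.7 CPM in KO, and 23.7 to 34.3 CPM with a median of 32.5 in WT, where KO replicate 5 overlapped. D430019H16Rik measured 5.07, 4.08, 6.05, 3.74 and 4.36 CPM in KO, and 33.4 to 109 CPM with a median of 53.5 in WT. The processed pseudogene Gm11868 had 66, 64, 44, 66 and 49 estimated reads in the KO libraries and 0, 1, 0, 1, 0 and 0 in the WT libraries. Transcript estimates divide reads between near-identical copies, so these are reads assigned to the pseudogene, and its expression was not tested. The remaining gene was Acsm5.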
